A study of Mus musculus with 112 samples.

Results

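MicroRNA host lncRNAs are long noncoding transcripts from which microRNA hairpins are cut. The 6 described here, Dleu2, Mir17hg, Mir22hg, Mir124a-1hg, Mir9-3hg and Ftx, were taken by their symbols from 4 tables of lncRNA levels that together hold 1624 lncRNAs of mouse embryonic stem cells (ESCs). All 6 were in the table of antisense morpholino (AMO) treatments (1279 lncRNAs, 47 libraries) and in the table of total RNA after depletion of SNRNP70 (1279 lncRNAs, 24 libraries). Mir9-3hg was not in the polyA table (1246 lncRNAs, 12 libraries) nor in the SLAM-seq table (492 lncRNAs, 18 libraries), which left 5 hosts in each.

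The study asked how U1 snRNP, which pairs with 5′ splice sites in new transcripts, bears on the association of noncoding RNA with chromatin. U2 snRNP, the comparison here, binds the branch point of introns. Line 46C ESCs of strain 129/Ola, a mouse line kept with leukemia inhibitory factor, were harvested 2 h after nucleofection of 75 µM U1 AMO, 75 µM U2 AMO, 50 µM of both AMOs together (U1+U2 AMO) or 75 µM of a scramble control AMO. An AMO is an uncharged oligonucleotide that pairs with its target RNA, here U1 or U2 small nuclear RNA, and blocks it. A line derived from 46C, in which SNRNP70, a protein of U1 snRNP, carries an auxin-inducible degron (AID), was harvested after 4 h of 500 µM IAA (the auxin that triggers degradation) or untreated (0 h). For SLAM-seq, which reads newly made RNA through T-to-C changes left by 4-thiouridine (4sU), this line had 2 h of IAA and then 3 h of IAA with 4sU, against 3 h of 4sU alone. Cells were taken whole or split into chromatin, cytoplasm and nucleoplasm, with 3 libraries in each group and 2 usable libraries in whole cells with control AMO. The U1, U2 and U1+U2 AMO groups share their control libraries, and no untagged cells with IAA were analysed here, so effects of IAA alone and of SNRNP70 loss cannot be told apart. SNRNP70 mRNA and the snRNAs are not lncRNAs of these tables, so the perturbations themselves were not checked. The labels do not say whether replicates were separate cultures, so p-values measure the spread between these libraries, which may be technical.

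A primary microRNA transcript is made by RNA polymerase II, and the Microprocessor (Drosha with DGCR8) cuts the hairpin out of it in the nucleus, often while the transcript is still on the chromatin. Hosts are commonly spliced, and many keep their hairpins in introns. The level of a host RNA is therefore not the level of its mature microRNA, which none of the 4 tables measures. Dleu2 carries miR-15a and miR-16-1, a pair lost with the human locus in chronic lymphocytic leukaemia. Mir17hg carries the growth-promoting miR-17 to miR-92a cluster, which is active in ESCs, and Mir22hg carries miR-22. Mir124a-1hg and Mir9-3hg carry miR-124 and miR-9, microRNAs best known from neurons. Ftx lies in the X-inactivation centre beside Xist and carries a microRNA cluster of its own.

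The mature microRNAs are shown to identify what each host carries and which of them share a seed. RefSeq entries (build GRCm38.p6) matched for 13 mature microRNAs of 5 hosts, all but Mir124a-1hg, printed 5′ to 3′ with the seed, bases 2 to 8, in capitals.
miR-15a-5p: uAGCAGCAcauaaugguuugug, from Dleu2, chr14:61632075-61632096, minus strand.
miR-16-5p: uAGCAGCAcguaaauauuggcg, from Dleu2, chr14:61631936-61631957, minus strand.
miR-17-5p: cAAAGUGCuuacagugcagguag, from Mir17hg, chr14:115043684-115043706, plus strand.
miR-20a-5p: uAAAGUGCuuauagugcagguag, from Mir17hg, chr14:115044183-115044205, plus strand.
miR-18a-5p: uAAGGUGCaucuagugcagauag, from Mir17hg, chr14:115043867-115043889, plus strand.
miR-19a-3p: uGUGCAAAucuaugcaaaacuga, from Mir17hg, chr14:115044048-115044070, plus strand.
miR-19b-3p: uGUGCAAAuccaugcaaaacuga, from Mir17hg, chr14:115044358-115044380, plus strand.
miR-92a-3p: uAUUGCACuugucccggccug, from Mir17hg, chr14:115044476-115044496, plus strand.
miR-22-3p: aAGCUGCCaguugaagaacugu, from Mir22hg, chr11:75463772-75463793, plus strand.
miR-9-5p: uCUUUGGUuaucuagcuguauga, from Mir9-3hg, chr7:79505279-79505301, plus strand.
miR-374b-5p: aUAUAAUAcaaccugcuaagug, from the Ftx locus, chrX:103573112-103573133, minus strand.
miR-374c-5p: aUAAUACAaccugcuaagug, from the Ftx locus, chrX:103573086-103573105, plus strand.
miR-421-5p: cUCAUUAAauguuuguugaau, from the Ftx locus, chrX:103572966-103572986, minus strand.
The 13 sequences held 10 seeds: the Dleu2 pair shared AGCAGCA, miR-17-5p and miR-20a-5p shared AAAGUGC, miR-19a-3p and miR-19b-3p shared GUGCAAA, and no seed was shared between hosts. The seed of miR-18a-5p, AAGGUGC, was a separate one from that of miR-17-5p. miR-374c-5p lies on the strand opposite the other Ftx microRNAs.

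On the same build the hosts run at chr14:61602836-61682373 (Dleu2), chr14:115044390-115046728 (Mir17hg), chr11:75461539-75466690 (Mir22hg), chr14:64588115-64593961 (Mir124a-1hg), chr7:79500026-79534403 (Mir9-3hg) and chrX:103560910-103623754 (Ftx). Dleu2 spans 79538 bases and Ftx 62845, while Mir17hg spans 2339 and Mir22hg 5152. All microRNAs printed for Dleu2, Mir22hg, Mir9-3hg and Ftx lie inside the RefSeq span of their host. For Mir17hg only miR-92a-3p does, and the other 5 lie before its start. The transcript models used for counting may differ from these spans, and the exons were not analysed here.

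Values of total and polyA RNA are FPKM, fragments per unit of transcript length and of library size, as the authors scaled them, to spike-in RNA in the 3 fractions and without spike-in scaling in whole cells, so depth is unknown. SLAM-seq values are a spike-in-scaled signal whose steps gave back 24927 to 227237 reads per library. ESC markers were present: all 6 listed ESC lncRNAs (Lncenc1, Panct2, Platr4, Platr6, Platr10, Platr14) were above 0 and summed to 153.3 to 167.2 FPKM in control AMO whole cells and 213.2 to 221.0 in 0 h cells, against 15.7 to 23.6 and 22.9 to 26.8 for the 5 of 7 lncRNAs of differentiated cells that were listed there, none of them at 0. Sums of marker RNAs differed between fractions and experiments, and the purity of a fraction and its spike-in scale cannot be told apart in them. The nuclear RNAs Kcnq1ot1, Neat1, Malat1 and Tsix summed to 774.6 to 1057 FPKM on chromatin and 1252 to 1519 in cytoplasm of control AMO cells. In 0 h cells they summed to 1227 to 1478 and 256.2 to 323.5. The RNAs Snhg1, Gas5, Dancr and Snhg12, listed as cytoplasmic, summed to 697.7 to 796.3 FPKM on chromatin and 796.6 to 1029 in cytoplasm of control AMO cells, against 450.6 to 560.9 and 147.7 to 165.8 in 0 h cells. The part of purity and scale in the results below, such as the shares and other comparisons between fractions, was not tested. In bulk samples fewer cells carrying an RNA and less RNA per cell cannot be told apart.

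The hosts covered a wide range of levels in unperturbed cells. On chromatin of control AMO cells Mir17hg stood at 41.4 ± 4.33 FPKM, Dleu2 at 33.1 ± 3.98, Mir124a-1hg at 11.95 ± 2.39, Mir22hg at 6.95 ± 1.03, Ftx at 1.21 ± 0.249 and Mir9-3hg at 0.397 ± 0.368 (SD, n = 3 each), where the median lncRNA was at 1.92 FPKM. Only the ranges of Mir17hg (36.5 to 44.6) and Dleu2 (29.1 to 37.0) overlapped between neighbours in that order. In cytoplasm of the same cells Dleu2 (19.4 ± 2.86), Mir17hg (18.6 ± 2.39) and Mir22hg (17.5 ± 2.36) could not be ordered beyond their spread, and Mir124a-1hg (12.0 ± 3.46) overlapped Mir22hg, while Mir9-3hg (2.25 ± 0.658) and Ftx (0.903 ± 0.450) stood apart. In nucleoplasm the order was Dleu2 (8.96 ± 1.97), Mir17hg (5.76 ± 1.46), Mir22hg (5.12 ± 1.80), Mir124a-1hg (2.52 ± 0.378), Ftx (0.307 ± 0.0751) and Mir9-3hg (0.110 ± 0.0819), with overlap between Dleu2 and Mir17hg and between Mir17hg and Mir22hg. In chromatin of 0 h degron cells Mir124a-1hg led, at 35.6 ± 5.85, followed by Mir17hg at 25.8 ± 3.13, Dleu2 at 13.8 ± 1.97, Ftx at 4.49 ± 0.163, Mir22hg at 2.69 ± 0.693 and Mir9-3hg at 0.340 ± 0.122, and none of these neighbours overlapped. The 2 tables were scaled separately and the cells differ in line and nucleofection, so the difference in order is given without a test.

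Dleu2, Mir17hg, Mir124a-1hg and Ftx were higher on chromatin than the mean of the soluble fractions, as were most lncRNAs. Mir22hg and Mir9-3hg did not pass as higher there. In control AMO cells Mir124a-1hg and Ftx on chromatin overlapped their levels in cytoplasm alone. Mir124a-1hg had 9.45 to 14.2 FPKM on chromatin and 9.60 to 15.98 in cytoplasm, and Ftx 0.92 to 1.36 and 0.60 to 1.42. Set against the mean of cytoplasm and nucleoplasm (log2 scale, limma), chromatin levels in control AMO cells were higher for 4 of the 6: Mir17hg by 1.99 (SE 0.19, adjusted p = 4.67e-10), Dleu2 by 1.32 (SE 0.19, adjusted p = 6.74e-07), Mir124a-1hg by 1.08 (SE 0.28, adjusted p = 0.000987) and Ftx by 0.94 (SE 0.29, adjusted p = 0.00477), where 69.2% of all lncRNAs tested passed, 59.3% as higher. Mir22hg (-0.41, adjusted p = 0.158) and Mir9-3hg (-0.68, adjusted p = 0.0796) did not pass, and Mir9-3hg passed as lower without control AMO chromatin library 3 (-1.15, adjusted p = 0.00679) or cytoplasm library 2 (-0.80, adjusted p = 0.0461), and with a pseudocount of 0.4 in place of 0.2 (-0.62, adjusted p = 0.0396). In 0 h cells the same 4 hosts were higher on chromatin, Dleu2 by 2.73, Mir17hg by 2.44, Ftx by 1.90 and Mir124a-1hg by 1.35 (adjusted p = 8.26e-11 to 1.18e-05), and Mir9-3hg was lower by a log2 difference of -0.88 (adjusted p = 0.0179), where 80.0% passed, 68.8% as higher. The Mir9-3hg call was lost without 0 h chromatin library 3 (-0.62, adjusted p = 0.125). Mir22hg did not pass there (0.32, adjusted p = 0.395).

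As shares of the 3 fractions summed, by library number, chromatin held 63.1 ± 1.69% of Mir17hg, 53.8 ± 3.00% of Dleu2, 50.8 ± 7.54% of Ftx, 45.5 ± 10.7% of Mir124a-1hg, 23.9 ± 5.78% of Mir22hg and 12.98 ± 8.56% of Mir9-3hg in control AMO cells (SD, n = 3 each). Cytoplasm held 82.7 ± 5.73% of Mir9-3hg, 59.1 ± 2.60% of Mir22hg, 45.0 ± 10.3% of Mir124a-1hg, 36.4 ± 9.65% of Ftx and 28.25 ± 1.54% of Mir17hg. In 0 h cells chromatin held 70.8 ± 2.27% of Mir17hg, 70.7 ± 3.71% of Dleu2 and 65.7 ± 1.94% of Ftx. The cytoplasmic share of Dleu2 was 4.18 ± 1.496% there and 31.7 ± 4.70% in control AMO cells. That difference was not tested, and the 2 sets of cells differ in line, nucleofection and scaling. Cytoplasm held the larger part of Mir9-3hg in both lines, 71.9 ± 7.93% in 0 h cells. For Mir22hg the 0 h cells had 49.6 ± 5.36% in nucleoplasm, 34.8 ± 3.02% on chromatin and 15.6 ± 4.83% in cytoplasm. These shares have no depth behind them that could give a counting interval.

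**Figure D1:**
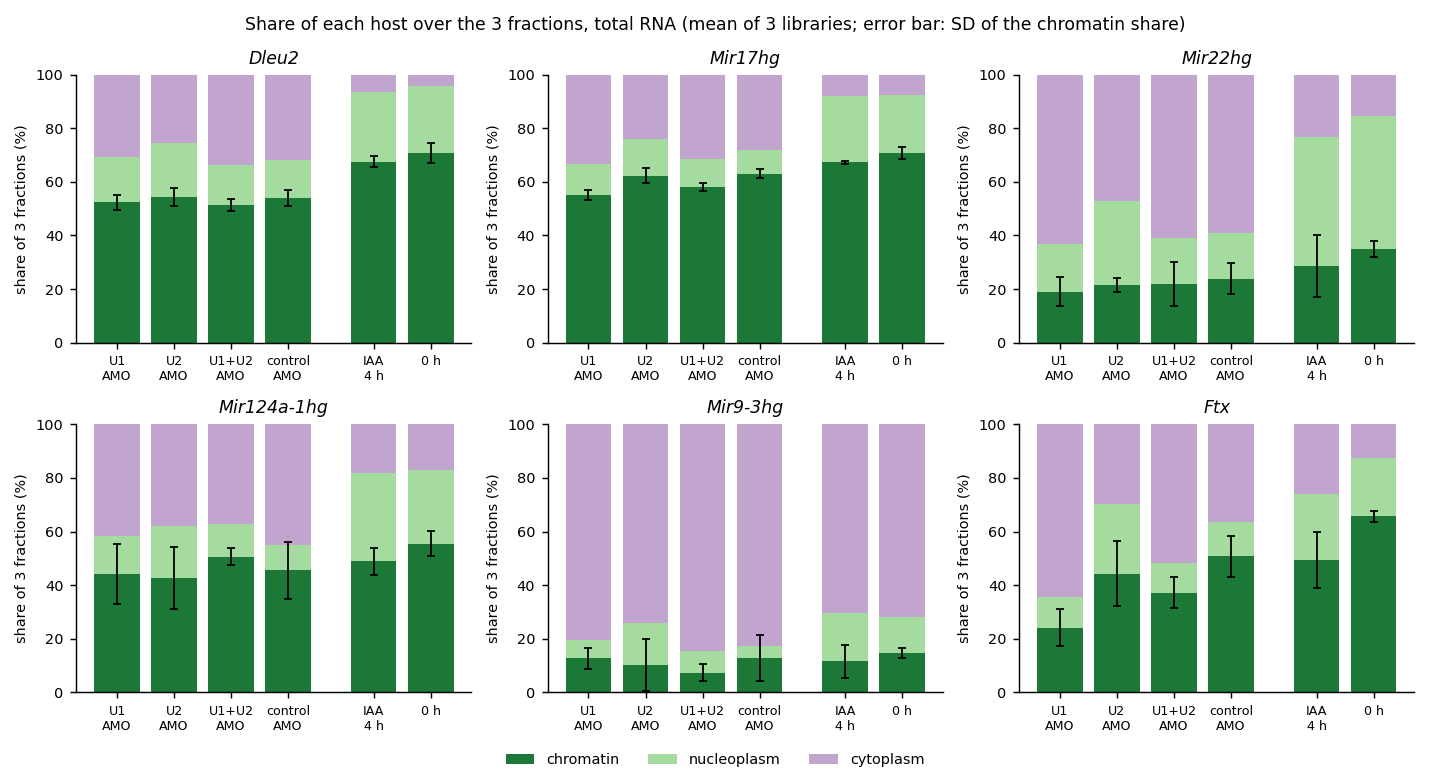
Mean share (%) of each host in chromatin, nucleoplasm and cytoplasm (stacked, total RNA, 3 libraries a group) for U1, U2, U1+U2 and control AMO cells and for IAA 4 h and 0 h degron cells, with the SD of the chromatin share as error bar. The chromatin share of Ftx was 24.1 ± 6.88% in U1 AMO cells and 50.8 ± 7.54% in control AMO cells, while that of Dleu2 was 52.4 ± 2.82% and 53.8 ± 3.00%.

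By limma with Benjamini-Hochberg adjustment over all lncRNAs tested (threshold 0.05), U1 AMO lowered 5 of the 6 hosts on chromatin, all but Mir9-3hg, with a median log2 change of -1.07 over the 6. This was a comparison in which 56.9% of the 1256 lncRNAs tested passed in either direction and 51.8% passed as lower, with a median of -0.80. When each library was centred on its own median, the median of all lncRNAs was 0.04, calls split into 226 higher and 145 lower in place of 64 and 651, and none of the 6 passed. U2 AMO lowered 3 of the 6 on chromatin (Dleu2, Mir17hg, Mir124a-1hg; median -0.79), where only 7.80% of lncRNAs passed, 5.02% as lower, with a median of -0.14 (35 higher and 63 lower; 100 and 47 when centred). U1+U2 AMO lowered the same 5 as U1 AMO (median -0.99), where 53.0% passed, 49.2% as lower, with a median of -0.74 (48 higher and 618 lower; 188 and 103 when centred), and again none passed when libraries were centred. No host was called higher on chromatin in any AMO treatment. Summed ESC marker lncRNAs were also lower there, at 60.7 to 74.5 FPKM with U1 AMO, 108.1 to 135.0 with U2 AMO and 64.0 to 78.3 with U1+U2 AMO, against 166.4 to 175.4 with control AMO. The lncRNAs of differentiated cells summed to 11.4 to 12.9 with U1 AMO, 22.7 to 30.1 with U2 AMO and 11.7 to 17.4 with U1+U2 AMO, against 24.7 to 29.0 with control AMO. The part of both lists in the result was not tested.

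**Figure D2:**
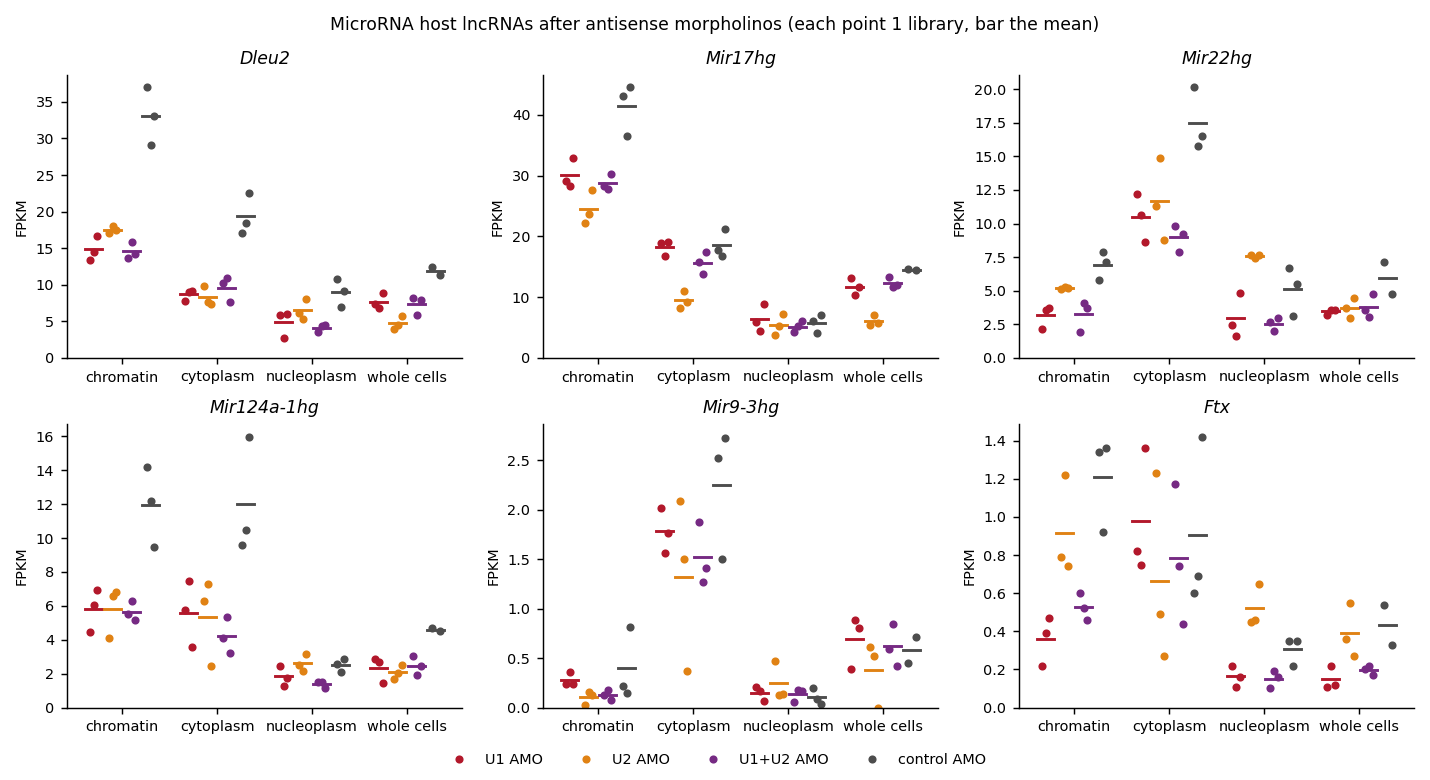
FPKM (linear axes from 0) of each host in chromatin, cytoplasm, nucleoplasm and whole cells for U1, U2, U1+U2 and control AMO, 1 point per library with a bar at the mean. On chromatin every library of the 3 treatments lies below every control library for Dleu2, Mir17hg, Mir22hg and Mir124a-1hg, and for Ftx the U2 AMO libraries overlap the control.

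Dleu2 was lowered in the most compartments. On chromatin it had 13.4, 14.5 and 16.6 FPKM with U1 AMO, 17.1, 18.0 and 17.4 with U2 AMO, and 13.6, 15.9 and 14.2 with U1+U2 AMO, against 37.0, 29.1 and 33.1 with control AMO. All 9 treated libraries lay below the lowest control library, and levels were 44.9%, 53.0% and 44.0% of control (log2 -1.14, SE 0.15, adjusted p = 0.000115; -0.90, SE 0.15, adjusted p = 0.00429; -1.17, SE 0.15, adjusted p = 0.000122). Relative to the library medians the U1 AMO change was -0.30 (adjusted p = 0.107) and the U1+U2 AMO change -0.37 (adjusted p = 0.0645), both no longer called, while that after U2 AMO was still called.

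In cytoplasm Dleu2 had 7.82, 9.02 and 9.17 FPKM with U1 AMO, 9.80, 7.70 and 7.36 with U2 AMO, and 10.3, 10.9 and 7.65 with U1+U2 AMO, against 17.1, 18.5 and 22.6 with control AMO. No treated library reached the lowest control library. It fell after U1 AMO (log2 -1.14, SE 0.21, adjusted p = 0.00712), the only 1 of 6 hosts to pass where 7.33% of lncRNAs did. It also fell after U2 AMO (-1.21, SE 0.21, adjusted p = 0.0226), with Mir17hg the 2 hosts of 6 that passed where 1.29% did, and after U1+U2 AMO (-1.01, SE 0.21, adjusted p = 0.0127), where Mir22hg and Mir124a-1hg passed too and 8.21% of lncRNAs did. The U2 AMO call was lost without U2 AMO library 1 or 3 or any 1 control library (adjusted p = 0.0597 to 0.108), and the U1+U2 AMO call without treated or control library 3 (adjusted p = 0.0603 and 0.0694).

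In nucleoplasm Dleu2 had 5.83, 2.74 and 6.01 FPKM with U1 AMO, 6.08, 5.38 and 8.07 with U2 AMO and 3.57, 4.36 and 4.49 with U1+U2 AMO, against 10.9, 6.92 and 9.12 with control AMO. The U1 AMO and U1+U2 AMO libraries lay below all controls, and the U2 AMO libraries overlapped them. It fell after U1+U2 AMO (log2 -1.06, SE 0.30, adjusted p = 0.0302), the 1 host of 6 called where 14.7% passed. That call was lost without any 1 of the U1+U2 AMO libraries or control library 1 or 3 (adjusted p = 0.0584 to 0.114). It was kept with library number as a block (limma adjusted p = 0.00877) and when centred (-1.025, adjusted p = 0.00573). Centred, 114 lncRNAs passed as higher there and 125 as lower. After U1 AMO none of the 6 was called where 14.2% passed, and Dleu2 stood at -0.91 (limma adjusted p = 0.0584). It passed with library number as a block (adjusted p = 0.0193), without U1 AMO library 3 (adjusted p = 0.0463) or without control library 2 (adjusted p = 0.0445). Dleu2 also passed when centred (-0.99, adjusted p = 0.00721), where 131 lncRNAs were called higher and 116 lower. In whole cells Dleu2 had 3.93, 4.44 and 5.79 FPKM with U2 AMO, against 12.4 and 11.4 with control AMO, 39.7% of control (log2 -1.31, SE 0.20, adjusted p = 0.00553). That call was lost without control library 1 or 2, in fits with a single control library (log2 -1.251 and -1.373). With U1 AMO whole cells had 6.79 to 8.90 FPKM and with U1+U2 AMO 5.90 to 8.15, all below control. Neither change passed (log2 -0.63 and -0.70, limma adjusted p = 0.0662 and 0.0506). Both passed with library number as a block (adjusted p = 0.0189 and 0.0147), and neither when centred (adjusted p = 0.157 and 0.083).

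Mir17hg was called lower after U2 AMO on chromatin, in cytoplasm and in whole cells. After U1 AMO it was called on chromatin only, where its sign turned when libraries were centred. On chromatin it had 29.0, 28.2 and 32.8 FPKM with U1 AMO, 22.2, 23.6 and 27.6 with U2 AMO, and 28.3, 27.8 and 30.3 with U1+U2 AMO, against 43.1, 36.5 and 44.6 with control AMO. Every treated library was below every control library. The call of a fall after U1 AMO (log2 -0.46, SE 0.15, adjusted p = 0.0214) and after U1+U2 AMO (-0.52, SE 0.15, adjusted p = 0.0131) turned in sign when libraries were centred (0.38, adjusted p = 0.0931, and 0.28, adjusted p = 0.229). The U1 AMO call was also lost without U1 AMO library 1 or 2 or control library 1 or 3 (adjusted p = 0.0588 to 0.0811), and the U1+U2 AMO call without control library 3 (adjusted p = 0.0551). After U2 AMO it fell by 0.75 on the log2 scale (SE 0.15, adjusted p = 0.00999), a call lost when centred (-0.52, adjusted p = 0.0567) and without control library 1 or 3 (adjusted p = 0.0527 and 0.0529).

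In cytoplasm Mir17hg had 8.22, 10.9 and 9.27 FPKM with U2 AMO, against 17.7, 16.7 and 21.3 with control AMO, with no overlap (51.1% of control; log2 -0.96, SE 0.19, adjusted p = 0.0308). The call was lost when centred (adjusted p = 0.0529) and without U2 AMO library 1 or 3 or any 1 control library (adjusted p = 0.0612 to 0.158). With U1 AMO it had 18.98, 16.8 and 19.02, overlapping the control (log2 -0.02, 95% interval -0.43 to 0.40). In whole cells it had 5.40, 6.98 and 5.73 FPKM with U2 AMO, against 14.6 and 14.4 with control AMO (41.7% of control; log2 -1.25, SE 0.15, adjusted p = 0.00307), and with Dleu2 it was 1 of 2 hosts called where 3.52% of lncRNAs passed. Without control library 2 its adjusted p was 0.0546. With U1 AMO whole cells had 13.1, 10.3 and 11.7 (log2 -0.31, adjusted p = 0.205), and with U1+U2 AMO 13.3, 11.7 and 12.0 (-0.23, adjusted p = 0.373). All of these lay below the control libraries, though neither change passed.

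Mir124a-1hg had nearly equal changes in the 3 treatments on chromatin. It had 4.45, 6.05 and 6.96 FPKM there with U1 AMO, 4.10, 6.60 and 6.80 with U2 AMO, and 5.55, 6.28 and 5.16 with U1+U2 AMO, against 14.2, 12.2 and 9.45 with control AMO. All treated libraries lay below all controls, with log2 changes of -1.02, -1.03 and -1.04 (SE 0.23 each; adjusted p = 0.00288, 0.0201 and 0.00312). The U2 AMO call was lost without U2 AMO library 1 or control library 1 or 2 (adjusted p = 0.057 to 0.0985), and those of U1 and U1+U2 AMO when centred (-0.18, adjusted p = 0.524, and -0.24, adjusted p = 0.388).

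In cytoplasm Mir124a-1hg had 4.11, 5.37 and 3.21 FPKM with U1+U2 AMO, against 9.60, 10.5 and 15.98 with control AMO. It fell by 1.46 on the log2 scale (SE 0.41, adjusted p = 0.0493), a call at the threshold that was lost with a pseudocount of 0.1 in place of 0.2 (adjusted p = 0.0531), with no filter on low values (adjusted p = 0.0504) and without any 1 library (adjusted p = 0.0701 to 0.172). With U1 AMO (-1.10, adjusted p = 0.132) and U2 AMO (-1.24, adjusted p = 0.179) it did not pass, though no treated library reached the controls. In whole cells it had 2.84, 2.66 and 1.47 FPKM with U1 AMO, 1.70, 2.02 and 2.50 with U2 AMO and 3.05, 1.94 and 2.44 with U1+U2 AMO, against 4.67 and 4.51 with control AMO. All treated libraries were lower, and U1 AMO was called (log2 -0.97, SE 0.28, adjusted p = 0.0438), the 1 host of 6 where 13.4% passed. That call was lost when centred (adjusted p = 0.107), with library number as a block (adjusted p = 0.0803) and without U1 AMO library 2 or 3 (adjusted p = 0.055 and 0.0876). It was also lost without control library 1 or 2, in fits with a single control library (log2 -0.949 or -0.997). U2 AMO did not pass there (-1.09, adjusted p = 0.0636), nor did U1+U2 AMO, where none of the 6 was called against 11.6% of lncRNAs (-0.86, adjusted p = 0.0797).

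Mir22hg, with the larger part of its RNA in cytoplasm in the AMO table, had 2.17, 3.57 and 3.72 FPKM on chromatin with U1 AMO, 5.16, 5.24 and 5.22 with U2 AMO, and 1.92, 4.07 and 3.72 with U1+U2 AMO, against 5.83, 7.86 and 7.15 with control AMO. It fell after U1 AMO (log2 -1.12, SE 0.27, adjusted p = 0.00379) and U1+U2 AMO (-1.11, SE 0.27, adjusted p = 0.00463), and not past the threshold after U2 AMO (-0.39, adjusted p = 0.461). When libraries were centred the changes were -0.28 and -0.31 and no longer called (adjusted p = 0.38 and 0.333). In cytoplasm it had 12.2, 10.7 and 8.59 with U1 AMO, 11.3, 14.9 and 8.80 with U2 AMO, and 9.85, 7.85 and 9.21 with U1+U2 AMO, against 20.2, 15.8 and 16.5 with control AMO. Only U1+U2 AMO was called there (log2 -0.94, SE 0.23, adjusted p = 0.03), and the call was lost without U1+U2 AMO library 2 or 3 or any 1 control library (adjusted p = 0.0513 to 0.11). U1 AMO stood at -0.73 (adjusted p = 0.0783) and U2 AMO at -0.60 (adjusted p = 0.244).

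In nucleoplasm Mir22hg had 2.48, 1.6 and 4.84 FPKM with U1 AMO and 7.67, 7.42 and 7.64 with U2 AMO, against 6.67, 3.15 and 5.53 with control AMO. The U2 AMO libraries lay above all controls, but neither change passed (-0.81, adjusted p = 0.156; 0.61, adjusted p = 0.232). The U1 AMO change passed without U1 AMO library 3 (-1.21, adjusted p = 0.0262). None of the 6 hosts was called in nucleoplasm after U2 AMO, where 19.4% of lncRNAs passed, every one of them higher, with a median of 0.45. When libraries were centred, 95 were higher and 37 lower (median -0.06), and Dleu2 passed as lower (-0.96, adjusted p = 0.0158, against -0.45, adjusted p = 0.306). U1+U2 AMO gave 2.70, 2.00 and 2.96 (-0.90, adjusted p = 0.105). With library number as a block Mir22hg passed there (adjusted p = 0.0328), as did Mir124a-1hg (adjusted p = 0.0339, against 0.0581 without the block), and Mir22hg also passed without control library 2 (adjusted p = 0.04).

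Ftx was low in the AMO table, at or under 1.42 FPKM in every library, so the added constant of 0.2 bears on its log2 values. On chromatin it had 0.22, 0.39 and 0.47 FPKM with U1 AMO, 0.79, 1.22 and 0.74 with U2 AMO, and 0.60, 0.52 and 0.46 with U1+U2 AMO, against 1.34, 0.92 and 1.36 with control AMO. It fell to 29.8% of control after U1 AMO (log2 -1.34, SE 0.26, adjusted p = 0.00117) and to 43.7% after U1+U2 AMO (-0.94, SE 0.26, adjusted p = 0.00959), with no overlap, and was not called after U2 AMO (-0.34, adjusted p = 0.51). Centred on the library medians the first was -0.50 (adjusted p = 0.107) and the second -0.15 (adjusted p = 0.675). In cytoplasm it had 0.82, 0.75 and 1.36 with U1 AMO, against 0.60, 0.69 and 1.42 with control AMO, and the groups overlapped (log2 0.13, 95% interval -0.90 to 1.16). In whole cells it had 0.11, 0.22 and 0.12 with U1 AMO, against 0.54 and 0.33 (log2 -0.85, adjusted p = 0.0675).

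Mir9-3hg, the host with the highest cytoplasmic share with control AMO, was called in no AMO comparison with control. On chromatin it had 0.24, 0.36 and 0.24 FPKM with U1 AMO, 0.03, 0.16 and 0.13 with U2 AMO, and 0.13, 0.18 and 0.08 with U1+U2 AMO, against 0.22, 0.15 and 0.82 with control AMO, values near the constant of 0.2. Control library 3 stood far above the other controls. Of the 3 changes on chromatin, only that of U1+U2 AMO passed in any fit that left out 1 library, without control library 2 (-0.999, adjusted p = 0.0488, against -0.70, adjusted p = 0.127). In cytoplasm it ranged from 1.56 to 2.02 with U1 AMO, 0.37 to 2.09 with U2 AMO and 1.27 to 1.88 with U1+U2 AMO, against 1.5 to 2.73 with control AMO (log2 -0.27, -0.87 and -0.49; adjusted p = 0.783, 0.41 and 0.557). It was listed at 0 in 1 whole-cell library with U2 AMO.

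U1 and U2 AMO were also set against each other. On chromatin Mir22hg (log2 -0.72, SE 0.27, adjusted p = 0.0432) and Ftx (-0.998, SE 0.26, adjusted p = 0.00918) were lower with U1 AMO than with U2 AMO, 2 of 6 where 45.4% of lncRNAs passed (67 higher and 503 lower; 197 and 157 when centred, median -0.58). Both calls were lost when centred (-0.12, adjusted p = 0.72, and -0.39, adjusted p = 0.211), and that of Mir22hg without U1 AMO library 1 or 2 or any 1 U2 AMO library (adjusted p = 0.0502 to 0.178). Mir124a-1hg (0.01, 95% interval -0.50 to 0.51), Dleu2 (-0.24, -0.57 to 0.09) and Mir17hg (0.29, -0.04 to 0.62) were not called, and Mir17hg passed as higher with U1 AMO when library number was a block (adjusted p = 0.027) and when centred (0.90, adjusted p = 0.00142), where Mir9-3hg (1.27, adjusted p = 0.018) and Mir124a-1hg (0.61, adjusted p = 0.03) did too. In nucleoplasm the same pair was lower with U1 AMO, Mir22hg by a log2 difference of -1.42 (SE 0.35, adjusted p = 0.0109) and Ftx by -0.99 (SE 0.23, adjusted p = 0.00873), 2 of 6 where 24.7% passed. The Mir22hg call held in each alternative run, and the Ftx call was lost when centred (-0.55, adjusted p = 0.0747).

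A shift between fractions, by which the log2 change on chromatin is set against the average of the 2 soluble fractions' changes, was called for 1 host. After U1 AMO Ftx fell more on chromatin than in the soluble fractions (log2 -1.17, SE 0.41, adjusted p = 0.0437). In this comparison 19.8% of lncRNAs passed, 252 of them away from chromatin and 1 towards it, with a median of -0.66 (3 away and 10 towards when centred, median 0.18). Away from chromatin means here a lower change there, not a gain in the soluble fractions. Ftx was called in neither soluble fraction (log2 0.13 in cytoplasm and -0.48 in nucleoplasm). The call was lost with a pseudocount of 0.1 in place of 0.2 (adjusted p = 0.0621), when centred (-0.33, adjusted p = 0.76) and in fits without any 1 of 11 of the 18 libraries (adjusted p = 0.0513 to 0.148). Dleu2, with falls of -1.14 on chromatin and in cytoplasm alike, had a shift of -0.12 (95% interval -0.68 to 0.44), and Mir17hg one of -0.51 (-1.07 to 0.05). None of the 6 passed after U2 AMO, where 0.548% of lncRNAs did, or after U1+U2 AMO, where 8.38% did.

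After depletion of SNRNP70 the calls differed between hosts, though no test compared one host with another. In total RNA on chromatin, 2 of the 6 fell, Dleu2 and Ftx, in a comparison where 49.8% of lncRNAs passed, 46.7% as lower, with a median of -0.65 (40 higher and 588 lower; 265 and 210 when centred). Dleu2 had 6.55, 6.77 and 7.21 FPKM after 4 h of IAA, against 15.1, 11.5 and 14.7 at 0 h, 49.7% of 0 h (log2 -0.99, SE 0.17, adjusted p = 0.00103), a call lost when centred (-0.25, adjusted p = 0.169). Ftx had 2.44, 1.52 and 1.35, against 4.67, 4.36 and 4.43 at 0 h, 39.5% of 0 h (log2 -1.34, SE 0.24, adjusted p = 0.0012), and was called in every alternative run. In both genes no treated library reached the lowest 0 h library. Summed ESC markers were at 73.3 to 89.4 FPKM on chromatin after IAA, against 162.6 to 214.0 at 0 h, and the lncRNAs of differentiated cells at 11.1 to 11.4, against 22.7 to 24.0. The part of both lists in the result was not tested.

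The other 4 hosts were not called on chromatin. Mir17hg had 26.5, 25.8 and 24.1 FPKM after IAA, against 27.3, 22.2 and 28.0 at 0 h (log2 -0.01, 95% interval -0.36 to 0.33), and Mir124a-1hg had 30.9, 37.9 and 29.4, against 38.8, 28.9 and 39.1 (-0.12, -0.52 to 0.28). Both sets of libraries overlapped. Against the falling median of all lncRNAs these 2 stood out upwards: with libraries centred Mir17hg was at 0.73 (adjusted p = 0.00117) and Mir124a-1hg at 0.63 (adjusted p = 0.0108), so their direction turns with the scaling. Mir22hg had 1.61, 3.03 and 3.69, against 3.49, 2.36 and 2.23 (-0.01, -0.69 to 0.67), and Mir9-3hg 0.18, 0.29 and 0.08, against 0.40, 0.42 and 0.20 (-0.66, adjusted p = 0.261).

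In whole cells Mir124a-1hg rose, with 23.9, 22.3 and 22.4 FPKM after 4 h of IAA, against 12.5, 10.5 and 10.98 at 0 h. The groups were far apart and the ratio was 2.02 (log2 1.01, SE 0.11, adjusted p = 0.00252), a call that held in every alternative run. It was the 1 host of 6 called in whole cells, where 11.8% of lncRNAs passed. Ftx had 1.35, 0.98 and 1.33, against 2.11, 1.96 and 2.37, with no overlap but just short of the threshold (log2 -0.78, adjusted p = 0.0523). Mir17hg (0.04, 95% interval -0.28 to 0.36) and Mir22hg (0.15, -0.33 to 0.63) overlapped. Mir124a-1hg was called in no fraction of total RNA: nucleoplasm had 23.3, 22.4 and 20.1, against 20.7, 16.7 and 15.2 (log2 0.33, adjusted p = 0.206; 0.59, adjusted p = 0.00695 when centred), and cytoplasm 13.8, 9.08 and 13.6, against 13.6, 9.48 and 10.1 (0.13, adjusted p = 0.826). Whole-cell values, unlike those of fractions, were not scaled to spike-in RNA.

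Dleu2 also fell in nucleoplasm, with 2.52, 2.93 and 2.50 FPKM after IAA, against 5.23, 4.75 and 4.57 at 0 h (log2 -0.85, SE 0.16, adjusted p = 0.0144), the 1 host of 6 called there, where 10.8% of lncRNAs passed as lower. The call was lost without 0 h library 2 (adjusted p = 0.0597). Mir17hg was not called in nucleoplasm (0.25, adjusted p = 0.286) and passed as higher when centred (0.51, adjusted p = 0.0108). In cytoplasm none of the 6 was called by limma, where 3.67% passed. Dleu2 lay between 0.60 and 0.72 FPKM after IAA, against 0.64 and 1.02 at 0 h, and Mir22hg between 1.39 and 3.62, against 0.68 and 1.63 (log2 0.84, adjusted p = 0.359). No shift between fractions was called, where 19.5% of lncRNAs passed. Ftx had the largest fitted one of the 6 (-1.001, adjusted p = 0.0983), which passed without IAA 4 h cytoplasm library 3 (-1.21, adjusted p = 0.0189).

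**Figure D3:**
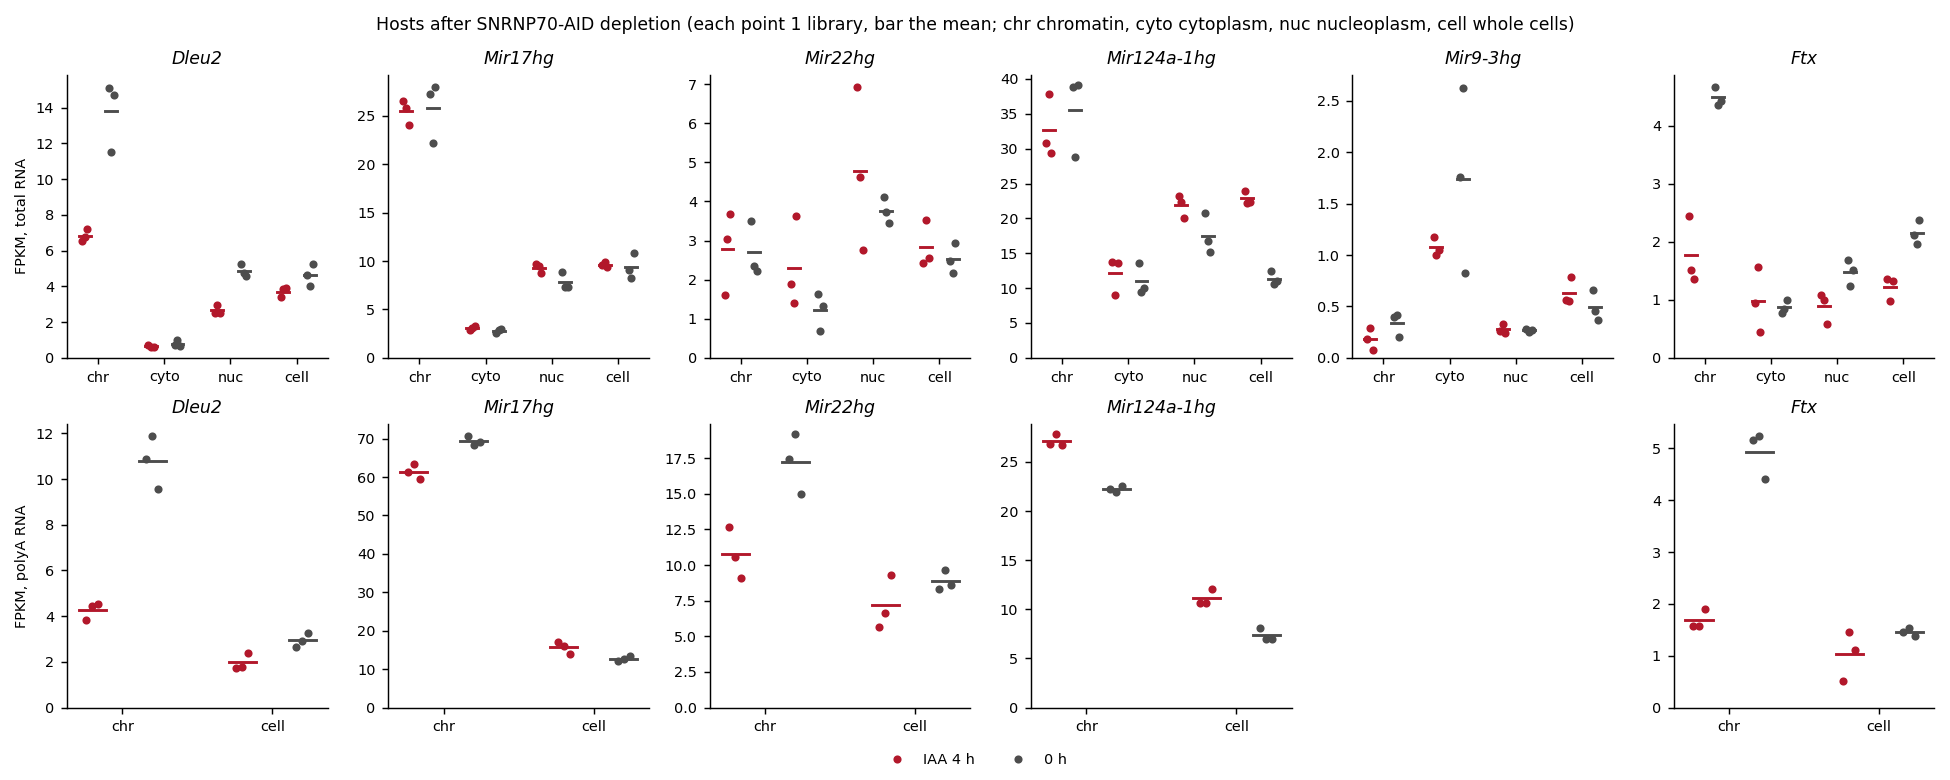
FPKM (linear axes from 0) of each host after 4 h of IAA and at 0 h, in total RNA of 4 compartments (upper row) and polyA RNA of chromatin and whole cells (lower row, without Mir9-3hg), 1 point per library with a bar at the mean. Mir124a-1hg in whole cells lies at 22.3 to 23.9 after IAA and 10.5 to 12.5 at 0 h, while Dleu2 and Ftx on chromatin lie lower after IAA in both RNA types.

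In polyA RNA after IAA, Dleu2 and Ftx were lower on chromatin and Mir124a-1hg was higher. All 5 hosts passed there, 4 lower (with Mir17hg turning in sign when centred) and 1 higher, where 45.8% of lncRNAs passed, 36.8% as lower, with a median of -0.37 (109 higher and 448 lower; 232 and 201 when centred). Ftx had 1.58, 1.57 and 1.90 FPKM after IAA, against 5.16, 5.23 and 4.41 at 0 h (log2 -1.498, SE 0.14, adjusted p = 0.000107). Dleu2 had 3.81, 4.43 and 4.53, against 10.9, 11.9 and 9.55 (-1.32, SE 0.12, adjusted p = 0.0001). Both were called in every alternative run. Mir22hg had 12.7, 10.6 and 9.06, against 17.5, 19.2 and 15.0 (-0.68, SE 0.14, adjusted p = 0.00598), lost when centred (-0.20, adjusted p = 0.375). Mir17hg, the most abundant host, had 61.3, 63.4 and 59.6, against 70.8, 68.2 and 69.2 (-0.18, SE 0.05, adjusted p = 0.0224), at 88.5% of 0 h, a call that was lost without IAA library 1 or 0 h library 1 or 2 (adjusted p = 0.0511 to 0.0738) and that turned to a called rise when libraries were centred (0.31, adjusted p = 0.00574).

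Mir124a-1hg rose in polyA RNA in both compartments. On chromatin it had 26.8, 27.8 and 26.8 FPKM after IAA, against 22.2, 22.0 and 22.6 at 0 h (log2 0.28, SE 0.06, adjusted p = 0.00535). In whole cells it had 10.6, 10.7 and 12.1, against 8.12, 6.97 and 6.98 (0.59, SE 0.12, adjusted p = 0.00838), the 1 host of 5 called, where 20.0% of lncRNAs passed. No library of one group reached the other, and both calls held in every alternative run. The other hosts in whole cells were Mir17hg with 17.1, 16.1 and 14.0, against 12.1, 12.6 and 13.3 (0.30, adjusted p = 0.0827), Dleu2 with 1.73, 1.79 and 2.40, against 2.66, 2.92 and 3.27 (-0.57, adjusted p = 0.0647), Mir22hg with 5.64, 6.64 and 9.29, against 8.33, 9.63 and 8.61 (-0.33, adjusted p = 0.244) and Ftx with 0.51, 1.46 and 1.12, against 1.46, 1.54 and 1.38 (-0.57, adjusted p = 0.28). Without IAA library 3, the highest for Dleu2 and Mir22hg and the lowest for Mir17hg, Dleu2 and Mir22hg passed as lower (adjusted p = 0.032 and 0.035) and Mir17hg as higher (adjusted p = 0.0392).

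SLAM-seq gave the newly made part of these RNAs. On chromatin (total RNA) 2 of 5 hosts were lower with IAA, Ftx and Dleu2, where 39.2% of lncRNAs passed, 33.6% as lower, with a median of -0.41 (24 higher and 142 lower; 96 and 65 when centred). Dleu2 had a signal of 98.5, 98.5 and 106.2 with IAA, against 154.4, 182.6 and 132.2 without (log2 -0.58, SE 0.20, adjusted p = 0.0322), from 114, 78 and 136 reads against 101, 262 and 90. Ftx had 3.45, 17.7 and 9.37, against 29.1, 30.0 and 26.4 (-1.08, SE 0.34, adjusted p = 0.0206), from 4, 14 and 12 reads against 19, 43 and 18. In both the groups did not overlap. Both calls were lost when centred (-0.02, adjusted p = 0.942, and -0.52, adjusted p = 0.25), in edgeR on the recovered reads with TMM scaling (adjusted p = 0.637 and 0.156), and without single libraries: for Dleu2 any IAA library or library 1 or 2 without IAA (adjusted p = 0.0589 to 0.112), for Ftx IAA library 1 or any library without IAA (adjusted p = 0.0564 to 0.0964). Mir17hg had 446.5, 482.3 and 431.7, against 503.1, 459.9 and 502.2 (-0.11, 95% interval -0.41 to 0.20; 0.46, adjusted p = 0.0213, when centred, the opposite sign), and Mir124a-1hg 76.0, 130.1 and 102.3, against 48.9, 87.8 and 73.4 (0.51, adjusted p = 0.143; 1.07, adjusted p = 0.00654, when centred).

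In nucleoplasm (polyA RNA) new Mir124a-1hg had a signal of 399.4, 441.7 and 444.1 with IAA, against 188.5, 321.9 and 131.1 without, a ratio of 2.00 (log2 1.07, SE 0.28, adjusted p = 0.000887) from 125, 269 and 131 reads against 72, 160 and 62. Every IAA library was above every other one, and the call held in each alternative run. Ftx was lower there, at 6.39, 9.85 and 3.39, against 57.6, 26.2 and 19.03 (-1.46, SE 0.58, adjusted p = 0.0429), from 2, 6 and 1 reads against 22, 13 and 9. These 2 were the hosts called of 5, where 27.3% of lncRNAs passed. The Ftx call was lost with a pseudocount of 4 in place of 8 (adjusted p = 0.0557), in edgeR with the authors' scaling (adjusted p = 0.0505) and without IAA library 1 or 3 or library 1 or 2 without IAA (adjusted p = 0.0911 to 0.259). Mir17hg (0.27, adjusted p = 0.475), Mir22hg (0.22, adjusted p = 0.65) and Dleu2 (-0.44, adjusted p = 0.453) did not pass.

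In cytoplasm (polyA RNA) 0 of the 4 hosts tested were called by limma, where 10.6% of lncRNAs passed, none of the 4 at an unadjusted p under 0.05 and none by edgeR. Ftx had 0 reads in all 3 IAA libraries and 0, 8 and 0 without IAA, so it was not tested. Read numbers were small, from 0 to 15 for Dleu2 and 6 to 34 for Mir22hg.

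**Figure D4:**
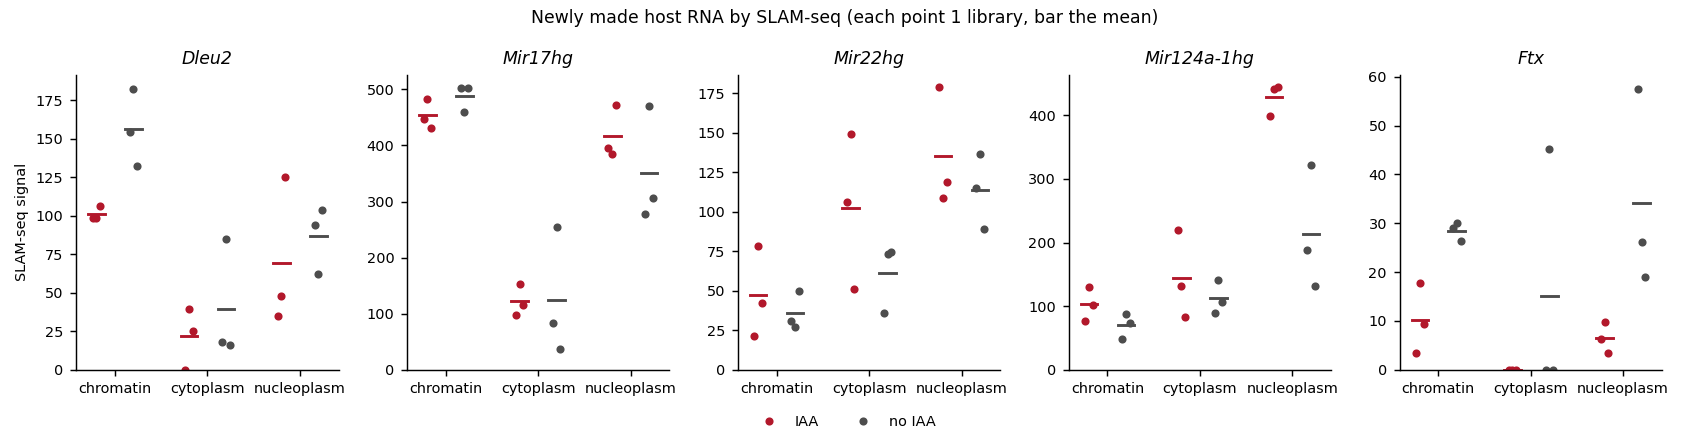
SLAM-seq signal (linear axes from 0, spike-in scaled by the authors) of 5 hosts with and without IAA in chromatin, cytoplasm and nucleoplasm, 1 point per library with a bar at the mean. New Mir124a-1hg in nucleoplasm lies at 399.4 to 444.1 with IAA and 131.1 to 321.9 without, and new Ftx on chromatin at 3.45 to 17.7 and 26.4 to 30.0.

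**Figure D5:**
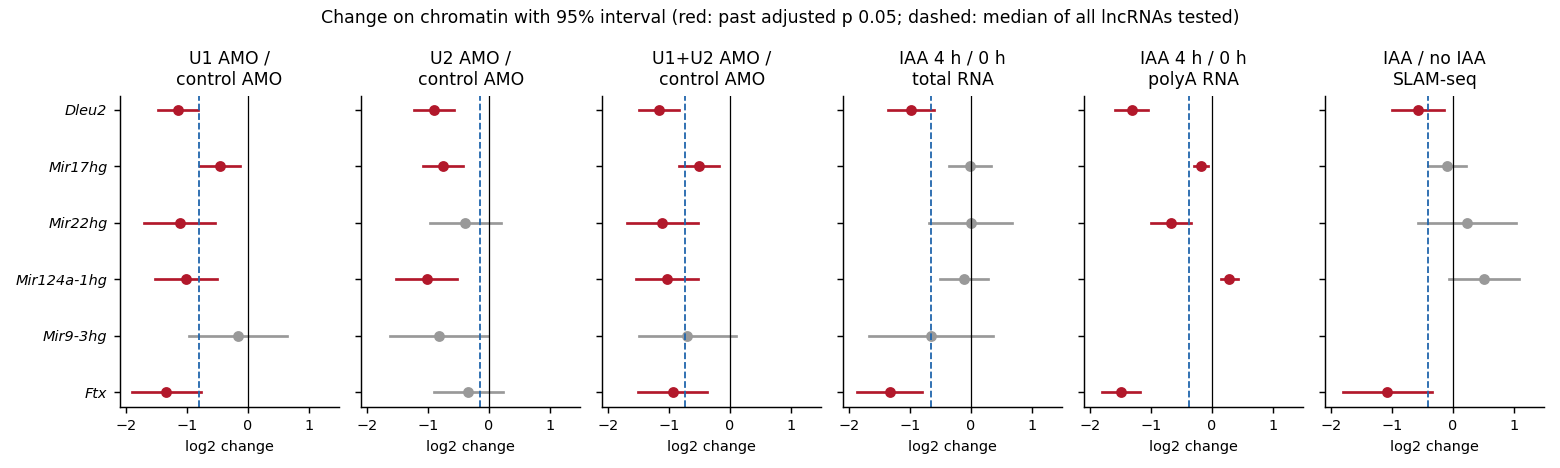
Log2 change of each host on chromatin with its 95% interval in the 6 chromatin comparisons (x axis, log2), red where the adjusted p was under 0.05, with a dashed line at the median of all lncRNAs tested. Dleu2 lies left of 0 in all 6 panels, Ftx is called in all but U2 AMO, and Mir124a-1hg stands at -1.02 with U1 AMO and at 0.28 in polyA RNA after IAA.

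Side by side, the 5 chromatin comparisons that perturb U1 snRNP and the 1 with U2 AMO alone gave these values. Dleu2 was called lower in all 5 and with U2 AMO, at log2 -0.58 to -1.32, and Ftx in all 5 and not with U2 AMO, at -0.94 to -1.498. When libraries were centred, Dleu2 lost 4 of the 5 calls and Ftx 3, while the U2 AMO call of Dleu2 held. As shares of all lncRNAs tested, 33.6% to 51.8% were called lower in the 5 and 5.02% with U2 AMO, and the AMO comparisons share their control libraries. Mir124a-1hg was at -1.02 after U1 AMO, at -0.12 in total RNA, 0.28 in polyA RNA and 0.51 in new RNA after IAA. Mir17hg was at -0.46 after U1 AMO and -0.01 in total RNA after IAA, with a sign that turned when centred. The AMO and degron tables differ in line, nucleofection, time and scaling, and no test was made between them.

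Other lncRNAs that carry microRNAs were taken from a list of 18, of which 4 were in the tables: Mirg and Rian, of the imprinted Dlk1-Dio3 region, Meg3 of the same region and Pvt1 beside Myc. After U1 AMO on chromatin, where 51.8% of lncRNAs passed as lower, 2 of 4 fell (Mirg, log2 -1.45, adjusted p = 9.53e-05, and Pvt1, -1.04, adjusted p = 0.000345) and Meg3 (-0.41) and Rian (-0.19) were not called. After U2 AMO, where 5.02% did, 1 of 4 fell, Mirg (-0.77, adjusted p = 0.0232). After IAA all 4 fell in total RNA on chromatin (median -0.74), where 46.7% of lncRNAs passed as lower and the median was -0.65. In new nucleoplasmic RNA, where 27.3% passed, Pvt1, with 154.3 to 185.3 with IAA, against 0 to 13.1 without, and Rian, with 100.2 to 128.8 against 16.1 to 104.7, rose (adjusted p = 5.4e-13 and 0.0129), while Mirg fell (-1.32, adjusted p = 0.0386).

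Over the means of the 16 AMO groups, each host was set beside 691 other lncRNAs with a mean of at least 1 FPKM. The most alike in pattern were Gm42732 and Gm42979 to Dleu2 (Pearson r = 0.953 and 0.929), Gm37494 and 2900052L18Rik to Mir17hg (0.939 and 0.938), 9130221H12Rik and B230354K17Rik to Mir22hg (0.953 and 0.952), Firre and an entry named 1700030C10Rik to Mir124a-1hg (0.979 and 0.943), an entry named Gm4430 and 4933404O12Rik to Mir9-3hg (0.962 and 0.959) and Gm45718 and E330020D12Rik to Ftx (0.939 and 0.925). Among the hosts themselves r was highest between Dleu2 and Mir124a-1hg (0.926) and lowest between Dleu2 and Mir9-3hg (0.153). These values describe groups that share libraries and the contrast between fractions.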

How the data were processed

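RNA of whole cells, chromatin, cytoplasm and nucleoplasm was sequenced from 46C cells with AMOs and from the SNRNP70 degron line. FPKM values of lncRNAs were made by the authors, who scaled chromatin, cytoplasm and nucleoplasm to spike-in RNA per the file headers (lacZ and mCherry in total RNA, ERCC in polyA RNA). The SLAM-seq signal was deposited as spike-in-scaled (ERCC) counts of reads with T-to-C changes, in chromatin from total RNA and in cytoplasm and nucleoplasm from polyA RNA. The submitters' processing notes name CASAVA, TopHat, TopHat2 2.0.11, Cufflinks, Bowtie2 and bedtools, with mm10 and mm9 as builds. The library kit keeps strand per the labels' protocols, but whether counting used strand is not given in the sources used here, so reads of overlapping antisense genes cannot be told apart from those of a host.

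From there, log2(value + pseudocount) was tested with limma 3.58.1 in R 4.3.3, 1 fit per fraction over all its groups. Shifts between fractions and chromatin against the soluble mean came from 1 fit over the groups of all 3 fractions. The main fits of this kind treated the fractions as independent libraries. Pseudocounts were 0.2 (AMO), 0.1 (total and polyA RNA of the degron line) and 8 (SLAM-seq). Testing required 3 or more libraries of a fit at or above the pseudocount, and p-values were adjusted over all lncRNAs tested. Differences on this scale understate changes of low genes. Entries that shared an ID were left out (3 in each total RNA table and 2 in the polyA table). SLAM-seq values gave whole reads for at least 99.7967% of entries in each library (within 0.1 read), from 24927 to 227237 reads a library, and these reads were also tested with edgeR 4.0.16, which called 155 of 423 lncRNAs on chromatin, 57 of 423 in cytoplasm and 138 of 490 in nucleoplasm with TMM scaling, against 166, 45 and 134 by limma. The methods were tested on simulated data. Intervals are at the 95% level. Shares divide each fraction by the sum of the 3 with the same library number.

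All 6 hosts are named in every table that holds them, with their 2 nearest lncRNAs over the AMO groups. The members and gene lists were chosen with earlier results of these data known. Of 112 samples 101 libraries were used, and 1 column that names no fraction was not. Library numbers paired the samples in 9 of 23 comparisons, where every same-numbered pair deviated together (correlation over 0.1): the AMO comparisons on chromatin and in nucleoplasm, and U1 AMO in cytoplasm. The pairing comes from the data, not from a label.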

Additional observations from a re-analysis of the deposited data

Results flagged for a closer look

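The larger fall of Ftx on chromatin than in the soluble fractions after U1 AMO met the rule for an effect that differs between fractions. It did so by a test of the difference itself, with a value of -1.165 (log2, SE 0.41, limma adjusted p = 0.0437). Ftx was at 0.22, 0.39 and 0.47 FPKM on chromatin and at 0.82, 0.75 and 1.36 in cytoplasm with U1 AMO, against 1.34, 0.92 and 1.36 on chromatin and 0.60, 0.69 and 1.42 in cytoplasm with control AMO. In nucleoplasm it was at 0.22, 0.11 and 0.16 with U1 AMO, against 0.35, 0.22 and 0.35 with control AMO (log2 -0.48, limma adjusted p = 0.21). In whole cells Ftx was at 34.5% of control with U1 AMO, every library below the controls (log2 -0.85, limma adjusted p = 0.0675). Its cytoplasmic share was 64.5 ± 4.20% with U1 AMO and 36.4 ± 9.65% with control AMO, and its nucleoplasmic share 11.4 ± 5.23% and 12.8 ± 2.17% (SD, n = 3 each). The median of all lncRNAs was -0.66, with 1 called towards chromatin and 252 away from it. With libraries centred the median was 0.18, 10 were called towards chromatin and 3 away, and Ftx was at -0.33 (adjusted p = 0.76).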

How the results depend on the processing

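Of 2163 values of single hosts under other settings, 2019 kept their side of the threshold, 106 fell short of it, 32 newly passed it and 6 that passed in at least 1 of the fits turned in sign. Among the 2019, 84 values that passed in neither fit also had the opposite sign, 30 of them on centring. The 6 turned when libraries were centred on their medians: Mir17hg on chromatin to 0.3812 (U1 AMO), 0.2807 (U1+U2 AMO), 0.7287 (total RNA after IAA), 0.3061 (polyA RNA) and 0.4582 (SLAM-seq), and Mir124a-1hg to 0.6257 (total RNA after IAA). Centring takes the median change of all lncRNAs out of each value. It moved the number of hosts called on chromatin to 0 in place of 5 after U1 AMO and to 0 in place of 5 after U1+U2 AMO. It moved the number in nucleoplasm to 1 in place of 0 after U1 AMO, 1 in place of 0 after U2 AMO, 2 in place of 1 after U1+U2 AMO, 1 in place of 2 between U1 and U2 AMO and 3 in place of 1 after IAA. Over all lncRNAs in nucleoplasm it moved calls from 120 higher and 42 lower to 131 and 116 after U1 AMO. After U1+U2 AMO it moved them from 90 and 78 to 114 and 125, and after IAA from 63 and 130 to 148 and 90. In whole cells it gave 0 in place of 1 after U1 AMO and 2 in place of 1 in polyA RNA after IAA, and 1 in place of 2 in cytoplasm after U2 AMO and 0 in place of 1 for the U1 AMO shift. With library number as a replicate block, 1 host in place of 0 was called after U1 AMO in nucleoplasm and 3 in place of 1 after U1+U2 AMO in nucleoplasm. In whole cells the block gave 2 in place of 1 after U1 AMO and 2 in place of 0 after U1+U2 AMO. The share of all lncRNAs called with the block was not counted. After U1 AMO in whole cells Mir124a-1hg lost its call with the block (limma adjusted p = 0.0803), while Dleu2 (0.0189) and Mir22hg (0.0236) gained one. The block changed the call of Mir17hg between U1 and U2 AMO on chromatin (adjusted p = 0.027) but moved no other number of hosts called by over 1.5 times, and the numbers are not shown to pair whole-cell libraries. A pseudocount of 2 times the size gave 1 in place of 0 after U1+U2 AMO in whole cells. One of 0.5 times the size gave 0 in place of 1 for the U1 AMO shift and 1 in place of 2 for new RNA in nucleoplasm. edgeR gave 1 in place of 2 for new RNA on chromatin (TMM, where Mir124a-1hg passed as higher at 1.02 and Dleu2 and Ftx did not pass) and 1 in place of 2 in nucleoplasm (the authors' scaling). Leaving out 1 library at a time gave, after U1 AMO, 4 to 5 hosts called on chromatin (5 with all libraries), 0 to 2 in nucleoplasm (0), 0 to 1 in whole cells (1) and 0 to 1 for the shift (1). After U2 AMO it gave 1 to 3 on chromatin (3), 0 to 2 in cytoplasm (2) and 0 to 2 in whole cells (2). After U1+U2 AMO it gave 4 to 6 on chromatin (5), 0 to 2 in cytoplasm (3) and 0 to 2 in nucleoplasm (1), and between U1 and U2 AMO on chromatin 1 to 2 (2). After IAA it gave 0 to 1 in nucleoplasm (1), 0 to 1 for the shift (0), 1 to 4 in polyA RNA of whole cells (1), 0 to 1 for new RNA on chromatin (2) and 1 to 2 for new RNA in nucleoplasm (2). Where 1 whole-cell control library was left out, the lone other one is assumed to vary like the other groups. The cause of these changes was not tested, beyond the smaller number of libraries in each. Depth is unknown for FPKM values. Read numbers limit new Ftx, with at most 14 reads a library on chromatin and 6 in nucleoplasm with IAA.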
